A study of Mus musculus with 12 samples.

Results

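Transcripts of 9 feedback and target genes of canonical Wnt signalling (Lef1, Tcf7, Axin2, Nkd1, Nkd2, Rnf43, Znrf3, Notum and Apcdd1) were measured in tibia shafts of 12 male mice. The genes were chosen by name, as those known to be induced by the pathway and to act on it. Earlier results of these data were known when they were chosen. All 9 of 9 were found among the 47069 genes of the count table. The mice were 8 weeks old and fell into 3 groups of 4. Jrt;Sost-het mice carried the Jrt allele, a splice donor variant of Col1a1 made by chemical mutagenesis that serves as a model of osteogenesis imperfecta, on 1 copy of the gene. In comparisons this group is called het and the next ko. The labels give the het group by its Col1a1Jrt/+ genotype alone, and the heterozygous Sost genotype is taken from the description of the study. Jrt;Sost-ko mice were Col1a1Jrt/+ and Sost-/-, so that both of these groups shared the Jrt allele. WT mice carried neither allele and came from a colony kept separately, so that colony and genotype cannot be told apart in any comparison with WT. Marrow was flushed from the shafts before RNA was extracted, and each mouse gave 1 poly(A)-selected library.

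In canonical Wnt signalling, a Wnt ligand bound to a Frizzled receptor and to Lrp5 or Lrp6 stops the destruction complex from degrading β-catenin, which then activates genes together with the TCF/LEF factors. Sclerostin, the product of Sost made mainly by osteocytes, binds Lrp5 and Lrp6 and blocks this step. Many of the genes that the pathway switches on encode its own inhibitors, and their transcripts are therefore widely used as readouts of its activity. The members fall into 4 roles, namely the transcription factors Lef1 and Tcf7, the cytoplasmic inhibitors Axin2, Nkd1 and Nkd2, the ubiquitin ligases Rnf43 and Znrf3, which remove Frizzled receptors from the cell surface, and the extracellular or membrane inhibitors Notum and Apcdd1.

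The comparison of ko with het mice asked whether loss of sclerostin moved these transcripts on the Jrt background. No member passed the test in this or in either other comparison. In ko mice 7 of 9 members had a higher estimate than in het mice, led by Apcdd1 (1.38-fold) and Nkd2 (1.37-fold), while Nkd1 and Notum had a lower one. The values of the groups overlapped for each of the 9 members in that comparison.

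Libraries held between 24366061 and 44418863 counts on genes, of which the 9 members together took 0.00692% to 0.0133%, and single members had between 34 and 1421 counts per mouse. Levels are given as counts per 1000000 counts (CPM), scaled by the trimmed mean of M values (TMM). Sost itself fell to between 0.326 and 1.28 CPM in Jrt;Sost-ko mice, from between 26.8 and 70.4 CPM in Jrt;Sost-het mice and between 28.5 and 72.3 CPM in WT mice. It was the 1 gene with an adjusted p under 0.05 in each comparison with Jrt;Sost-ko (edgeR adjusted p = 0.013 against Jrt;Sost-het and 0.00895 against WT). Col1a1 had 15000 ± 6630 CPM in WT, 18200 ± 4960 in het and 23900 ± 5800 in ko mice (SD, n = 4), and counts per gene do not show its splice variant. Markers of osteoblasts, osteocytes, osteoclasts and blood-forming cells were detected in all 12 libraries, as were those of skeletal muscle, whose 12 genes summed to between 26.8 CPM in Jrt;Sost-ko mouse 4 and 26000 CPM in WT mouse 4. WT mice 3 and 4 stood apart by 8 epidermis genes, which summed to 127 and 603 CPM against at most 3.29 CPM in every other mouse. In these bulk samples, fewer cells of a type and less RNA per cell cannot be told apart.

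Across genes, levels can be compared only per length, and the CPM was therefore divided by the length of each gene's merged exons in kilobases. Tcf7 was highest, at 6.09 ± 0.977 CPM per kilobase (SD over all 12 mice), followed by Nkd2 at 3.92 ± 0.969. Tcf7 exceeded Nkd2, and Nkd2 exceeded Apcdd1, in 12 of 12 mice. Below them Apcdd1 had 1.64 ± 0.5, Lef1 1.41 ± 0.247, Notum 1.27 ± 0.587 and Axin2 1.07 ± 0.316 CPM per kilobase. Znrf3 (0.845 ± 0.154), Nkd1 (0.732 ± 0.167) and Rnf43 (0.596 ± 0.109) were the lowest. Neighbours in the order from Apcdd1 downward were not separated in every mouse. Apcdd1 was above Lef1 in 9 mice, Lef1 above Notum in 8, Notum above Axin2 in 6, Axin2 above Znrf3 in 11, Znrf3 above Nkd1 in 9 and Nkd1 above Rnf43 in 8 of 12. Members also differed in how much they varied between mice. The highest CPM was 5.04 times the lowest for Notum and 1.78 times for Tcf7, with the other members between 1.85 and 2.52 times.

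**Figure D1:**
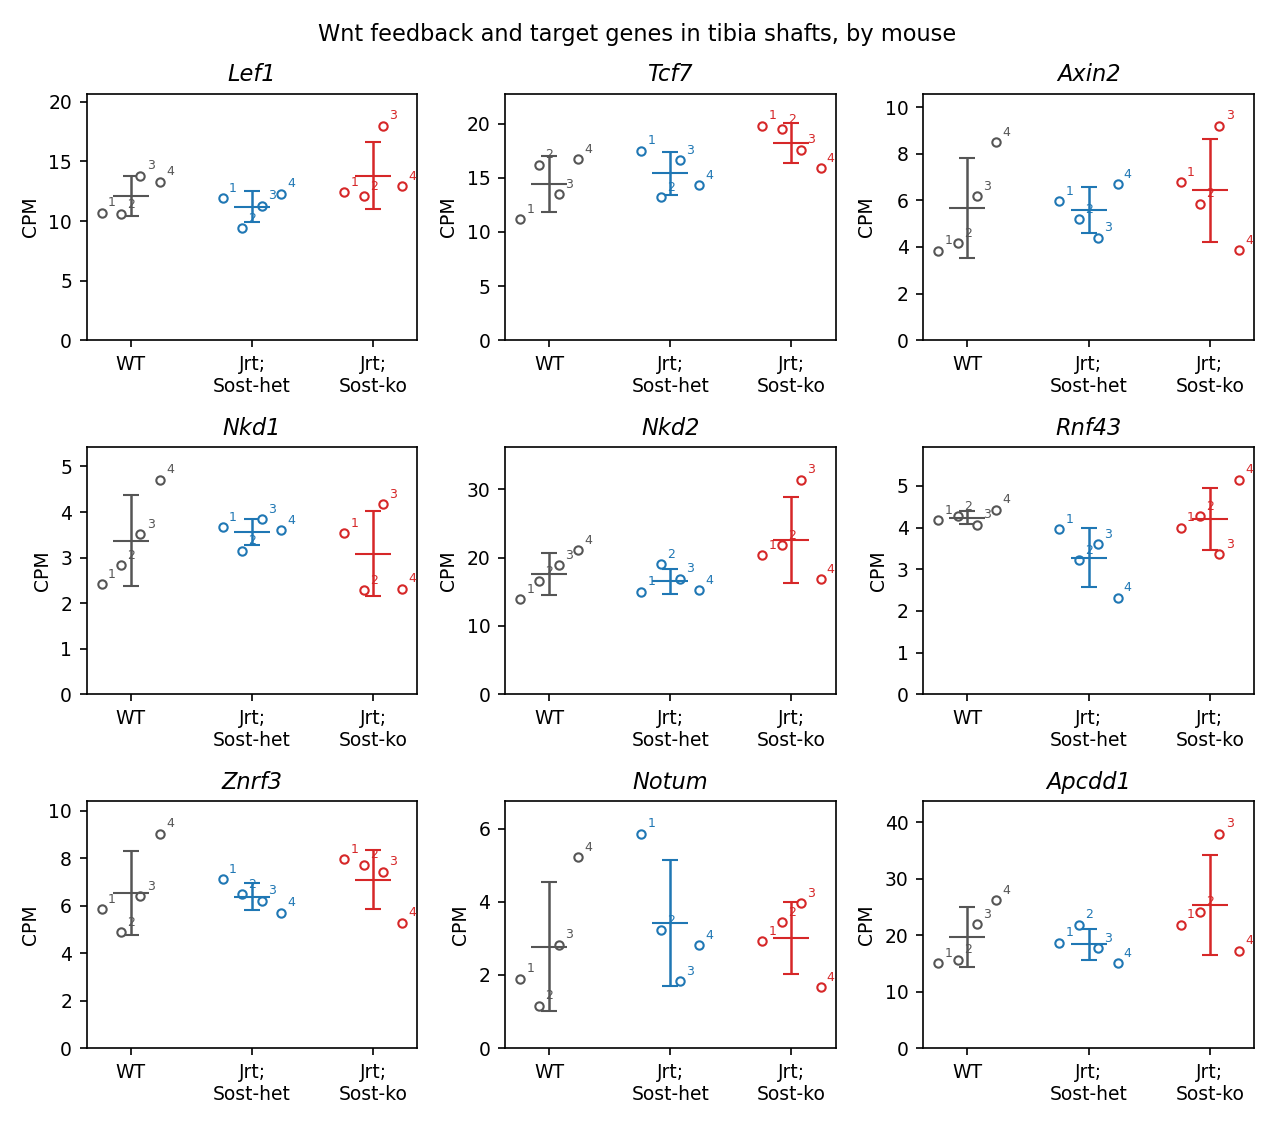
CPM (y axis, from 0) of each member in the 3 groups (x axis). Each circle is 1 mouse with its number, the wide bar is the group mean and the whiskers are ±1 SD (n = 4). Jrt;Sost-ko mouse 3 is the highest of its group for Lef1, Axin2, Nkd1, Nkd2, Notum and Apcdd1, and the 4 Jrt;Sost-het values of Rnf43 lie below the 4 WT values.

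Lef1 and Tcf7 encode DNA-binding partners of β-catenin, and both are themselves raised by the pathway in many cell types. Both are also made by T lymphocytes. Lef1 (ENSMUSG00000027985, GRCm38 chromosome 3, 131110471 to 131224356, plus strand) had 12.4, 12.1, 18.0 and 12.9 CPM in Jrt;Sost-ko mice 1 to 4. It had 11.9, 9.39, 11.3 and 12.3 CPM in Jrt;Sost-het mice and 10.7, 10.6, 13.8 and 13.3 CPM in WT mice. Jrt;Sost-ko mouse 3 stood above the other 11 mice, while Jrt;Sost-ko mouse 2 lay below Jrt;Sost-het mouse 4. The Lef1 log2 fold change in ko against het mice was 0.30 (SE 0.153, edgeR adjusted p = 0.901, exact permutation p = 0.0571), and it was 0.15 without Jrt;Sost-ko mouse 3. The lowest p that this permutation test can give with 4 against 4 mice is 0.0286.

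Tcf7 (ENSMUSG00000000782, chromosome 11, 52252371 to 52283014, minus strand) had 19.8, 19.5, 17.6 and 15.9 CPM in Jrt;Sost-ko mice. The values were 17.5, 13.2, 16.6 and 14.3 CPM in Jrt;Sost-het mice and 11.2, 16.2, 13.5 and 16.7 CPM in WT mice. The 3 highest Jrt;Sost-ko mice lay above all 8 others, and the lowest lay within both other groups. The Tcf7 estimate in ko against het mice was 0.24 on the log2 scale (SE 0.114, edgeR adjusted p = 0.901, exact permutation p = 0.114). Against WT the log2 fold change was 0.34 (SE 0.147), the only member of that comparison with an unadjusted edgeR p under 0.05 (0.0459, adjusted p = 1.0). Tcf7 was more abundant per length than Lef1 in every group, with a mean ratio of 4.02 ± 0.839 in WT, 4.61 ± 0.482 in het and 4.54 ± 1.03 in ko mice (SD, n = 4).

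Axin2 encodes a scaffold of the destruction complex and is the member most often used as a general readout of the pathway. Axin2 (ENSMUSG00000000142, chromosome 11, 108920349 to 108950783, plus strand) had 6.79, 5.86, 9.2 and 3.85 CPM in Jrt;Sost-ko mice. It had 5.97, 5.19, 4.4 and 6.7 CPM in Jrt;Sost-het mice and 3.84, 4.17, 6.19 and 8.5 CPM in WT mice. The Jrt;Sost-ko group held both the highest of all 12 values, in mouse 3, and nearly the lowest, in mouse 4. The log2 fold change against Jrt;Sost-het was 0.21 (SE 0.257, 95% confidence interval from −0.37 to 0.79, edgeR adjusted p = 0.917), and without Jrt;Sost-ko mouse 3 it was −0.02. In linear terms the interval ran from 0.772-fold to 1.73-fold.

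Nkd1 and Nkd2 encode the Naked cuticle homologues, which bind Dishevelled and dampen the signal inside the cell. Nkd2 (ENSMUSG00000021567, chromosome 13, 73818534 to 73847631, minus strand) had 20.4, 21.8, 31.4 and 16.8 CPM in Jrt;Sost-ko mice. The Jrt;Sost-het mice had 15.0, 19.0, 16.9 and 15.2 CPM, and the WT mice 13.9, 16.5, 18.9 and 21.1 CPM. Jrt;Sost-ko mice 1, 2 and 3 lay above all Jrt;Sost-het mice, and mouse 4 lay among them. The log2 fold change of Nkd2 was 0.45 (SE 0.181), the only one of the 9 members with an unadjusted edgeR p under 0.05 in this comparison (0.0345, adjusted p = 0.901), and the exact permutation p was 0.0857. Leaving out Jrt;Sost-ko mouse 3 gave Nkd2 a log2 fold change of 0.25 (edgeR adjusted p = 0.678).

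Nkd1 (ENSMUSG00000031661, chromosome 8, 88521354 to 88594884, plus strand) had 3.54, 2.29, 4.17 and 2.32 CPM in Jrt;Sost-ko mice. The values were 3.67, 3.15, 3.84 and 3.6 CPM in Jrt;Sost-het mice and 2.42, 2.84, 3.51 and 4.71 CPM in WT mice. The Jrt;Sost-het mice clustered closely, with a coefficient of variation of 8.22% against 30.3% in Jrt;Sost-ko mice, whose mice 2 and 4 were the lowest of all 12. The log2 fold change in ko against het mice was −0.21 (SE 0.22, edgeR adjusted p = 0.904). The estimates of the 2 homologues thus had opposite signs, and the ratio of Nkd2 to Nkd1 per length was 7.1 ± 1.47 in ko, 4.43 ± 0.862 in het and 5.07 ± 0.581 in WT mice (SD, n = 4). These ratios overlapped between groups, from 5.44 to 9.0 in ko and from 3.86 to 5.71 in het mice, and the difference was not tested.

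Rnf43 and Znrf3 encode transmembrane ligases that mark Frizzled for degradation and are themselves held back by R-spondins. Rnf43 (ENSMUSG00000034177, chromosome 11, 87662722 to 87735539, plus strand) had 4.17, 4.27, 4.07 and 4.43 CPM in WT mice. It had 3.97, 3.22, 3.61 and 2.32 CPM in Jrt;Sost-het mice and 4.0, 4.28, 3.37 and 5.15 CPM in Jrt;Sost-ko mice. The WT mice varied by 3.64% (coefficient of variation), at 125 to 181 Rnf43 counts per library. Counting error alone is expected to be larger at such counts, so this value does not show low variation between the WT mice. All 4 Jrt;Sost-het mice lay below the WT mice, while the Jrt;Sost-ko mice spanned both groups. The het and WT groups did not overlap for 1.54% of all genes. In het against WT mice the log2 fold change was −0.36 (SE 0.173, edgeR adjusted p = 1.0), with the lowest exact permutation p that the design allows (0.0286). Without Jrt;Sost-het mouse 4, whose library held 56 Rnf43 counts, it was −0.23. The estimate for Rnf43 was 0.36 (SE 0.2, edgeR adjusted p = 0.901) in ko against het mice and in ko against WT mice −0.01 (SE 0.151, edgeR adjusted p = 1.0).

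Znrf3 (ENSMUSG00000041961, chromosome 11, 5276324 to 5444847, minus strand) had 7.96, 7.73, 7.43 and 5.28 CPM in Jrt;Sost-ko mice. The values were 7.11, 6.47, 6.21 and 5.71 CPM in Jrt;Sost-het mice and 5.86, 4.89, 6.39 and 9.03 CPM in WT mice. Jrt;Sost-ko mice 1 to 3 lay above every Jrt;Sost-het mouse, and mouse 4 lay below every one of them. Together they gave a log2 fold change of 0.16 (SE 0.151, edgeR adjusted p = 0.904, exact permutation p = 0.371). Without mouse 4 it was 0.27 (SE 0.113, edgeR adjusted p = 0.748), and without mouse 1 it was 0.10.

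Notum encodes a secreted enzyme that removes the lipid from Wnt ligands. Notum (ENSMUSG00000042988, chromosome 11, 120653788 to 120661175, minus strand) had 1.9, 1.16, 2.83 and 5.21 CPM in WT mice. The values were 5.86, 3.22, 1.84 and 2.81 CPM in Jrt;Sost-het mice and 2.93, 3.45, 3.96 and 1.66 CPM in Jrt;Sost-ko mice. Pooled over the 3 groups, its within-group SD was 0.716 on the log2 scale, against at most 0.451 for the other members. In Jrt;Sost-ko mice alone its coefficient of variation (32.8%) was below those of Apcdd1 (35.1%) and Axin2 (34.6%). The log2 fold change in ko against het mice was −0.19 (SE 0.375, edgeR adjusted p = 0.942), and its interval from 0.486-fold to 1.58-fold was the widest of the 9. The exons of Notum overlap those of Notumos and Myadml2os on the opposite strand, which had at most 8 and 4 counts in any mouse. Since the strand setting of the counting is not given in the sources used here, reads of such overlapping pairs may not be separable, which also holds for Lef1 and Gm43352 (7 to 29 counts).

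Apcdd1 encodes a membrane protein that binds Wnt ligands and Lrp5. Apcdd1 (ENSMUSG00000071847, chromosome 18, 62922231 to 62961179, plus strand) had 21.9, 24.2, 38.0 and 17.3 CPM in Jrt;Sost-ko mice. The Jrt;Sost-het mice had 18.7, 21.9, 17.7 and 15.1 CPM, and the WT mice 15.1, 15.7, 22.0 and 26.2 CPM. Its order over the Jrt;Sost-ko mice was that of Nkd2, with mouse 3 far above and mouse 4 below the others. In ko against het mice Apcdd1 had a log2 fold change of 0.47 (SE 0.225, edgeR adjusted p = 0.901, exact permutation p = 0.171), and 0.21 without Jrt;Sost-ko mouse 3.

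Over the members as a group, 0 of 9 had an adjusted p under 0.05 in ko against het mice, where 0.00597% of 16739 genes did (edgeR). With DESeq2, 15 genes passed and 0 members did. An unadjusted edgeR p under 0.05 was found for 1 of 9 members and 5.02% of all genes. The estimate was higher in Jrt;Sost-ko mice for 7 of 9 members and 50.4% of all genes, and the groups did not overlap for 0 of 9 members and 3.2% of all genes. The median log2 fold change of the members was 0.24, against 0.0013 over all genes tested. Without Jrt;Sost-ko mouse 3 it was 0.15, with 6 of 9 members higher and 0 at an unadjusted edgeR p under 0.05. Without Jrt;Sost-ko mouse 4 it was 0.29, with 8 of 9 members higher. In that fit 4 members (Nkd2, Apcdd1, Tcf7 and Znrf3) and 1121 of 16914 genes had an unadjusted edgeR p under 0.05, with an adjusted p of at least 0.672 for the members. The 95% intervals of the members reached from 0.486-fold to 1.97-fold.

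In het against WT mice, which differ by the Jrt allele, 1 Sost allele and the colony, 0 of 9 members and 0% of 16775 genes had an adjusted p under 0.05 (edgeR), and DESeq2 also called 0 genes. At an unadjusted edgeR p under 0.05 there were 0 members and 2.14% of all genes. The estimate was higher in Jrt;Sost-het mice for 3 of 9 members (51.3% of all genes), and only Rnf43 did not overlap between the groups, which held for 1.54% of all genes. The median log2 fold change was −0.03, and 0.16 without WT mouse 4. When WT mice 3 and 4, which carried the epidermis transcripts, were left out, it was 0.26 with 8 of 9 members higher in Jrt;Sost-het mice, Rnf43 being the exception. Of all genes in that fit, 52.93% were higher in Jrt;Sost-het mice. An unadjusted edgeR p under 0.05 was found there for 3 members and 3408 of 17196 genes, and 0 genes passed the adjusted threshold. The Notum log2 fold change then went from 0.31 to 1.18 (edgeR adjusted p = 0.241). WT mice 3 and 4 also had the highest osteoblast sums (23700 and 34500 CPM) and muscle sums (10900 and 26000 CPM) of their group. The part of the epidermis, osteoblast and muscle transcripts in these values was not tested.

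In ko against WT mice, 0 of 9 members and 0.00583% of 17155 genes had an adjusted p under 0.05 (edgeR), and DESeq2 called 13 genes and 0 members. An unadjusted edgeR p under 0.05 was found for 1 of 9 members and 3.89% of all genes. The estimate was higher in Jrt;Sost-ko mice for 7 of 9 members (49.1% of all genes), and the groups did not overlap for 0 members (2.4% of all genes). The median log2 fold change was 0.18, and 0.42 with WT mice 1 and 2 alone. With 1 mouse left out it ran from 0.06 without WT mouse 2 to 0.42 without WT mouse 4, with 0.07 without WT mouse 1, 0.08 without Jrt;Sost-ko mouse 3 and 0.31 without Jrt;Sost-ko mouse 4. The 3 comparisons share mice, so that the values of one are not independent of those of another.

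**Figure D2:**
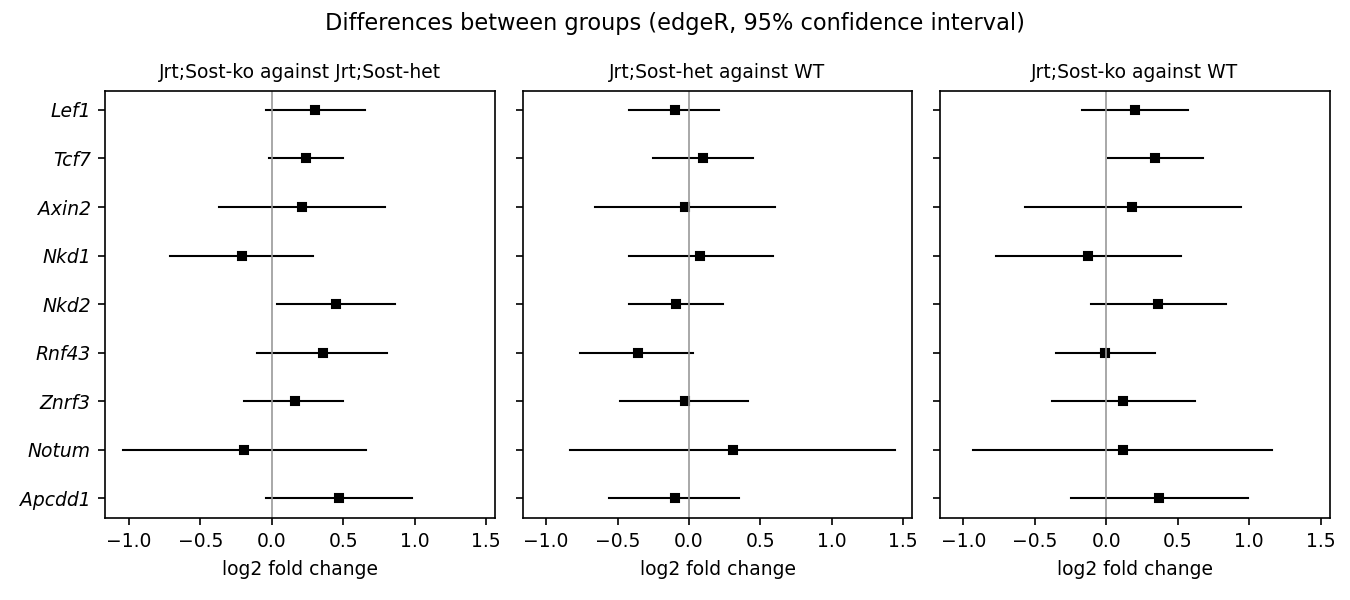
Log2 fold change (x axis) of each member (y axis) in the 3 comparisons, one per panel. Squares are edgeR estimates and lines their 95% confidence intervals, not adjusted for the number of genes. The interval excludes 0 for Nkd2 in the first panel (0.45) and for Tcf7 in the third (0.34), and neither passed the adjustment over all genes.

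Of the 9 members, 5 lie on chromosome 11, which also carries Sost and Col1a1. The closest to Sost is Axin2, at a distance of 7.0 Mb, followed by Rnf43 at 14.2 Mb and Notum at 18.7 Mb, while Tcf7 (49.7 Mb) and Znrf3 (96.5 Mb) are farther. Rnf43 is 7.2 Mb from Col1a1 and Axin2 14.0 Mb. The founder Jrt mice were on an FVB and the founder Sost-/- mice on a C57BL/6 background. By the description of the study, all groups, WT included, came from several generations of crossing on a mixed background of both strains. For genes inherited together with either allele, the strain of the neighbouring sequence and the genotype cannot be told apart.

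The other genes of the pathway were read from 4 lists, and 0 of their genes had an adjusted p under 0.05 in any comparison (edgeR). Of the 15 destruction complex genes, 12 had a higher estimate in ko than in het mice, against 50.4% of all genes, and their median was 0.02 (log2 fold change). The smallest p among them were those of Csnk1a1, a kinase that primes β-catenin (0.10, SE 0.0541, edgeR adjusted p = 0.901), and Tnks, a tankyrase that destabilises Axin (0.09, SE 0.0602, edgeR adjusted p = 0.901). Of the 13 nuclear cofactors, 5 were higher and the median was −0.06, with the corepressor gene Tle2 at −0.28 (SE 0.154) and the inhibitor gene Ctnnbip1 at −0.18 (SE 0.11). Of 6 genes tested in the R-spondin arm 3 were higher, with Lgr6, a receptor for R-spondins, at 0.35 (SE 0.358) and the ligand gene Rspo1 at −0.21 (SE 0.258).

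Of the 17 other genes known as Wnt targets, 15 were tested, and their median was 0.14 (log2 fold change). A higher estimate in ko than in het mice was found for 11 of them and 50.4% of all genes. An unadjusted edgeR p under 0.05 was found for 6 of the 15, all higher, and for 5.02% of all genes. The list was chosen with earlier results of these data known, so these counts are a description and not independent support. The smallest p was that of Dkk1, whose product is a secreted antagonist of Lrp5 and Lrp6. Dkk1 had 26.6 ± 4.07 CPM in ko and 15.7 ± 3.82 CPM in het mice (SD, n = 4). The groups did not overlap for Dkk1, which also held for Csnk1a1 and for 3.2% of all genes. The log2 fold change of Dkk1 was 0.76 (SE 0.18, edgeR adjusted p = 0.901). Myc, a growth regulator, followed with 55.9 ± 11.5 against 41.0 ± 2.59 CPM (SD, n = 4) and a log2 fold change of 0.45 (SE 0.137, edgeR adjusted p = 0.901). The estimate of Dkk1 was thus larger than that of any of the 9 members in this comparison, although it too did not pass the adjusted threshold.

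Against WT mice the same lists gave medians between −0.03 and 0.27. In ko against WT mice, 13 of 15 tested targets were higher (median 0.27), against 49.1% of all genes. The 2 with the smallest p were Myc (0.34, SE 0.14) and Dkk1 (0.67, SE 0.283). In the R-spondin arm Rspo1 had 1.09 ± 0.215 CPM in Jrt;Sost-ko and 1.63 ± 0.409 CPM in WT mice (SD, n = 4). Its groups did not overlap, which held for 2.4% of all genes. The log2 fold change of Rspo1 was −0.58 (SE 0.239, edgeR adjusted p = 1.0). Rspo2 was at 0.48 (SE 0.251). Among the nuclear cofactors of that comparison Tle3 was at 0.19 (SE 0.0828) and Ctnnbip1 at −0.26 (SE 0.166), and among the destruction complex genes Csnk1e was at −0.09 (SE 0.0641) and Dvl3 at 0.12 (SE 0.125). In het against WT mice the named genes were Gsk3b (−0.09, SE 0.0574), Tnks (−0.06, SE 0.047), Tle1 (0.23, SE 0.134), Bcl9l (0.18, SE 0.113), Myc (−0.11, SE 0.064), Jun (0.40, SE 0.3), Rspo2 (0.35, SE 0.221) and Rspo1 (−0.38, SE 0.263), each with an edgeR adjusted p of 1.0.

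The members were also compared with each other over the 12 mice. Of the 36 pairs of members, 33 had a positive Pearson correlation of log2 CPM, with a median r of 0.447, and 29 remained positive after the group means were removed. Nkd2 and Apcdd1 were the closest pair (r = 0.958, permutation p = 0.00002, adjusted over 36 pairs 0.00072, and rho = 0.902, permutation p = 0.00011, adjusted 0.00396). When the 2 mice with the most extreme Nkd2 were left out their r was 0.89, and with group means removed 0.952. Znrf3 and Notum followed (r = 0.825, permutation p = 0.00108, adjusted 0.0194, and rho = 0.846, permutation p = 0.00095, adjusted 0.0164), with r = 0.678 without 2 mice and 0.874 with group means removed. In all, 8 pairs had an adjusted permutation p under 0.05 by Pearson's r and 3 by both measures, the third being Znrf3 and Apcdd1 (r = 0.721, permutation p = 0.0067, adjusted 0.0379, and rho = 0.825, permutation p = 0.00137, adjusted 0.0164). Without 2 mice its r was 0.681. The 3 pairs with a negative r each contained Rnf43, with Nkd1 (−0.383), Axin2 (−0.338) and Notum (−0.175), and none of these had an adjusted permutation p under 0.05.

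**Figure D3:**
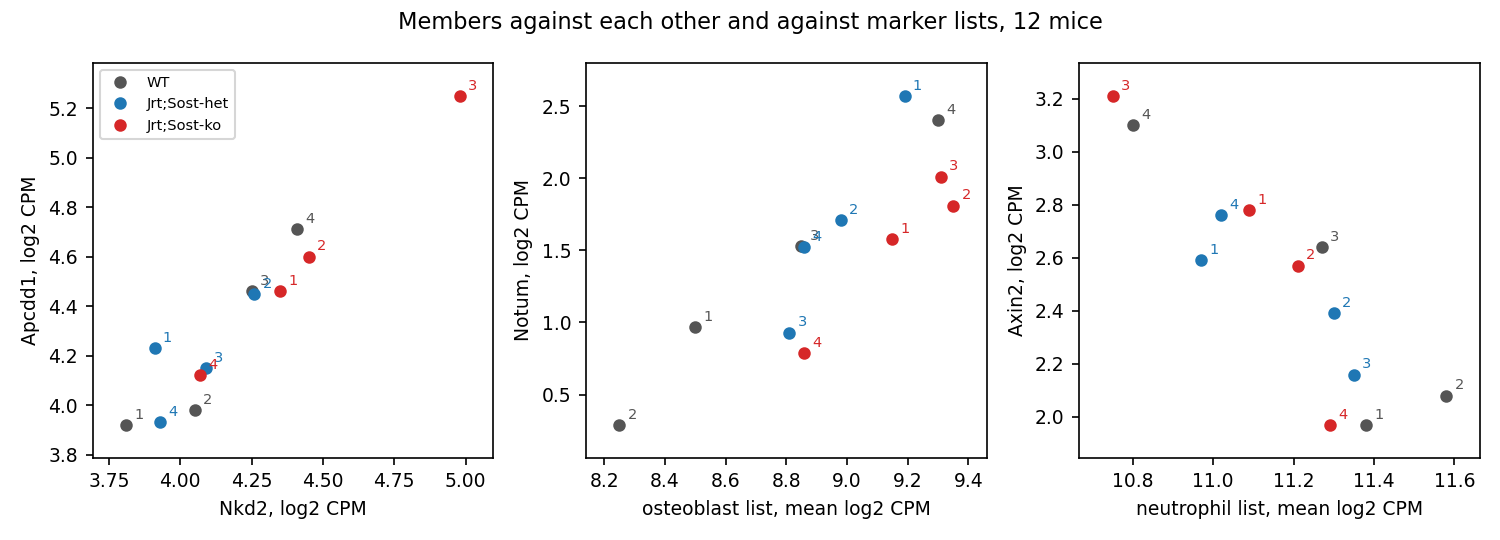
Apcdd1 against Nkd2, Notum against the osteoblast list and Axin2 against the neutrophil list, all as log2 CPM (a list is the mean over its genes). Each point is 1 of 12 mice with its number, coloured by group. Apcdd1 rises with Nkd2 (r = 0.958) and Notum with the osteoblast list (r = 0.856) in all 3 groups, and Axin2 is lower where the neutrophil list is higher (r = −0.887).

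The same mouse-to-mouse differences were seen against marker lists of cell types, of which 99 relations were computed (9 members with 11 lists). The osteoblast list (8 genes, Col1a1 left out) summed to between 14200 CPM in WT mouse 2 and 40400 CPM in Jrt;Sost-ko mouse 3, with group medians of 21200 in WT, 25300 in het and 35000 CPM in ko mice and none of its genes at 0. Notum followed it (r = 0.856, permutation p = 0.00048, adjusted over 99 relations 0.0157, and rho = 0.839, permutation p = 0.0012, adjusted 0.034). Its Pearson r was 0.807 without the 2 mice at the extremes of the list and 0.95 with group means removed. Notum was related nearly as closely, with a negative sign, to the neutrophil list (r = −0.839, permutation p = 0.00089, adjusted 0.0157, and rho = −0.797, permutation p = 0.00322, adjusted 0.0419). By Pearson's r alone it also passed with the endothelial (0.752, adjusted permutation p = 0.0452) and osteoclast lists (0.738, adjusted permutation p = 0.0485). These fell to 0.46 and 0.357 without 2 mice. Znrf3 likewise followed the osteoblast list (r = 0.868, permutation p = 0.00027, adjusted 0.0134, and rho = 0.811, permutation p = 0.00206, adjusted 0.034), with 0.805 without 2 mice and 0.931 with group means removed. For Apcdd1 and the osteoblast list r was 0.751 (permutation p = 0.00471, adjusted 0.0452) and rho 0.783 (permutation p = 0.00364, adjusted 0.0419), with r = 0.772 without 2 mice. Axin2 passed with the osteoblast list by Pearson's r alone (r = 0.75, permutation p = 0.00502, adjusted 0.0452, and rho = 0.636, permutation p = 0.0306, adjusted 0.138). Its r was 0.82 without 2 mice and 0.795 with group means removed. Znrf3 also followed the osteocyte list (6 genes, Sost left out), with r = 0.835 (permutation p = 0.00083, adjusted 0.0157) and rho = 0.895 (permutation p = 0.0002, adjusted 0.0178), and r = 0.794 without 2 mice.

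When the mean log2 CPM of the osteoblast list was added to the edgeR model as a covariate, the members' median log2 fold change in ko against het mice was 0.15 instead of 0.24, and 5 instead of 7 members had a higher estimate. Notum then had a log2 fold change of −0.77 (SE 0.203, edgeR adjusted p = 0.625), against −0.19 without the covariate. In ko against WT mice the value for Notum was −0.64 (SE 0.166, edgeR adjusted p = 0.145), against 0.12 without it. Notum therefore took a lower estimate in Jrt;Sost-ko mice relative to osteoblast transcripts, which did not pass the threshold over all genes. This covariate was chosen after the relation of Notum with the list had been seen, and the list itself may move with genotype.

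Correlations with the neutrophil and erythroid lists were negative for 8 of 9 members, Rnf43 being the exception (r = 0.248 and 0.579). Those with the developing B cell list had both signs, with r from −0.176 for Znrf3 to 0.678 for Lef1. The relation of Lef1 with that list did not pass (adjusted permutation p = 0.0688, and rho = 0.427, adjusted permutation p = 0.368), and its r was 0.0996 without 2 mice. The 7 neutrophil genes summed to between 15300 CPM, in Jrt;Sost-ko mouse 3 and WT mouse 4, and 28300 CPM, in WT mouse 2. Axin2 was lower where the neutrophil genes were higher (r = −0.887, permutation p = 0.0002, adjusted 0.0134, and rho = −0.881, permutation p = 0.00036, adjusted 0.0178), with r = −0.76 without 2 mice and −0.891 with group means removed. Nkd1 was lower where the 7 erythroid genes were higher (r = −0.83, permutation p = 0.00095, adjusted 0.0157, and rho = −0.832, permutation p = 0.00147, adjusted 0.034), with r = −0.879 without 2 mice. The same held for Axin2 and the erythroid genes (r = −0.769, permutation p = 0.00435, adjusted 0.0452, and rho = −0.783, permutation p = 0.00381, adjusted 0.0419), with r = −0.751 without 2 mice. CPM values are shares of a library, so that a larger share of one cell type lowers all others, and the part of cell composition in the group differences was not tested apart from the covariates named here.

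The 8 T lymphocyte genes summed to between 42.5 CPM in WT mouse 4 and 91.5 CPM in Jrt;Sost-ko mouse 1. The relations of the 2 transcription factors with them did not pass the threshold, with r = −0.378 for Lef1 (permutation p = 0.225, adjusted 0.421, and rho = −0.448, permutation p = 0.149, adjusted 0.35) and r = 0.357 for Tcf7 (permutation p = 0.253, adjusted 0.439, and rho = 0.231, permutation p = 0.47, adjusted 0.646). Without 2 mice these r were −0.445 and 0.0776.

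The skeletal muscle list differed most between mice and moved with Nkd1 (r = 0.745, permutation p = 0.00393, adjusted 0.0452, and rho = 0.748, permutation p = 0.00707, adjusted 0.0636), with r = 0.772 without 2 mice. With its mean log2 CPM as a covariate, 4 members had an unadjusted edgeR p under 0.05 in ko against het mice instead of 1, as did 911 of 16739 genes in the same fit. These were Nkd2 at 0.59 (SE 0.157), Apcdd1 at 0.61 (SE 0.206), Axin2 at 0.44 (SE 0.184) and Lef1 at 0.38 (SE 0.161), each with an edgeR adjusted p of 0.883. The median of the members was then 0.28. In these 2 groups the covariate was 0.62 in Jrt;Sost-ko mouse 4 and 6.53 to 10.6 in the other mice, so that 1 mouse weighs heavily in this fit. Leaving that mouse out, without the covariate, gave log2 fold changes of 0.56 for Nkd2, 0.61 for Apcdd1, 0.38 for Axin2 and 0.33 for Lef1. The 6 chondrocyte genes were highest in Jrt;Sost-het mouse 1 (3250 CPM) and WT mouse 4 (2540 CPM), the same 2 mice that had the highest Notum, against at most 736 CPM in the others. Over all 12 mice the relation of Notum with this list did not pass (r = 0.698, adjusted permutation p = 0.0643, and rho = 0.497, adjusted permutation p = 0.322). Without the 2 mice at the extremes of the list its r was 0.335.

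**Figure D4:**
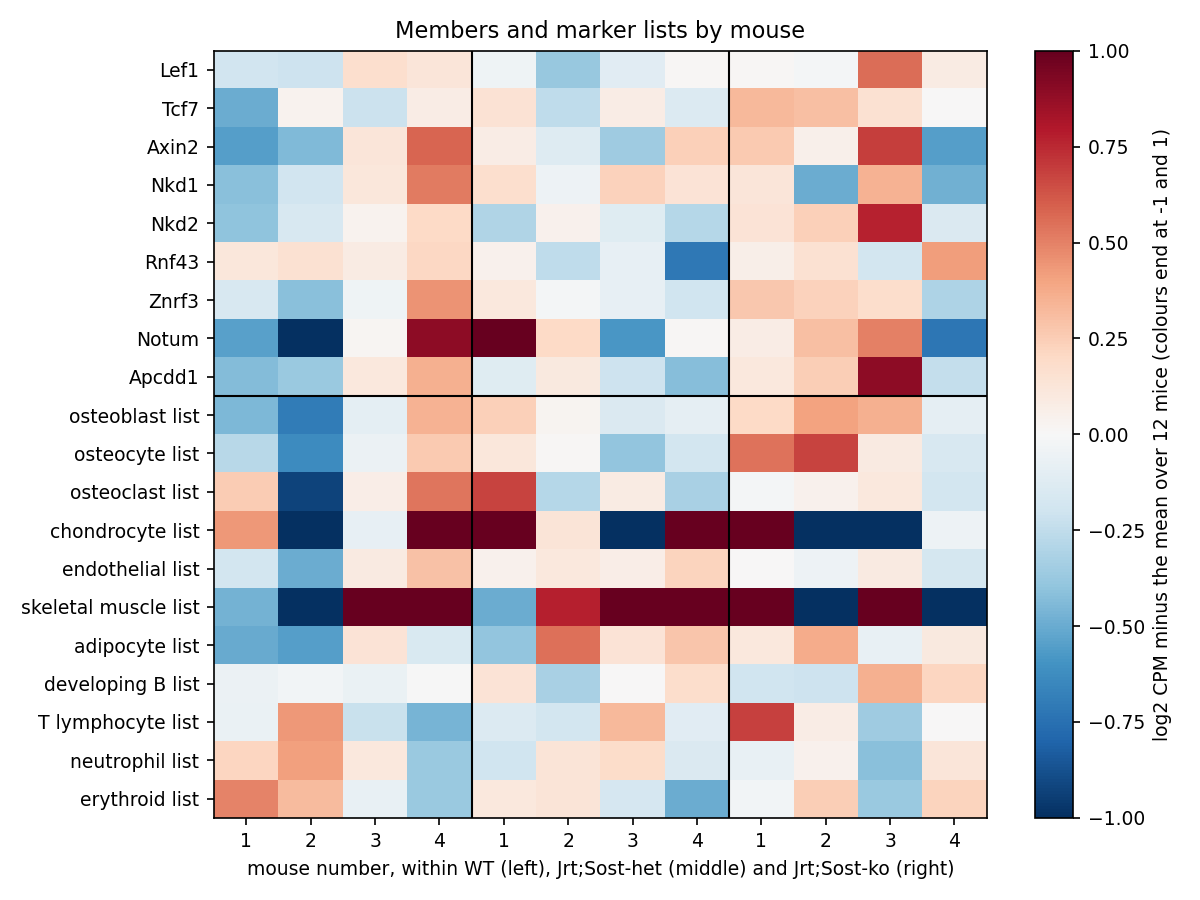
Log2 CPM of each member (upper 9 lines) and mean log2 CPM of 11 cell type lists (lower lines) in each mouse, as the difference from the mean over all 12 mice. Red is higher and blue lower, and the colours end at −1 and 1. WT mouse 4 and Jrt;Sost-ko mouse 3 are red and WT mice 1 and 2 blue for most members and for the osteoblast list, while the neutrophil list runs the other way.

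For each member the 3 genes with the highest Pearson r of log2 CPM over the 12 mice were taken from 17245 genes, as a description without a test. Nkd2 was most like Apcdd1 (0.958), Tnfrsf19 (0.909) and Fam20a (0.896), and Apcdd1 was most like Nkd2 (0.958), Tnfrsf19 (0.928) and Slc12a7 (0.921). Each of these 2 members was thus the other's closest gene. Axin2 was most like Wnt5a (0.961), Irs1 (0.946) and Ccdc50 (0.94), and Notum was most like Dzip1l (0.97), Slc39a13 (0.967) and Atp8b2 (0.966). Znrf3 had Afap1l2 (0.971), Dusp16 (0.967) and Robo2 (0.95), and Tcf7 had Tubb3 (0.91), the osteocyte gene Mepe (0.892) and Fbxo4 (0.884). The closest genes of Nkd1 were Cdkn1c (0.915), Hdgfrp3 (0.912) and P2rx6 (0.911). Lef1 (Gm5898, 0.895, Cd93, 0.87 and Ccdc117, 0.863) and Rnf43 (Ssr1, 0.904, Gm38082, 0.888 and Foxk2, 0.883) had looser neighbours. Because all these values come from the same 12 libraries, they also share whatever differs between the libraries.

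The promoters of the members were searched for CTTTGA, the core of the sequence bound by TCF/LEF factors, on both strands of the 250 bases before each start in RefSeq (GRCm38.p6). Windows of 6 of the 9 members (Axin2, Lef1, Tcf7, Nkd1, Nkd2 and Rnf43) were searched, 11 windows in all. No window of Znrf3, Notum or Apcdd1 was among those searched. The word occurred in 1 of these 11 windows and in 13.8% of the 32851 windows searched. These belonged to 27025 gene symbols and did not cover every gene. The longer CTTTGAT, which contains CTTTGA, occurred in 0 of 11 and in 3.21% of the 32851 windows. The looser CTTTGNN, where N is any base, is matched by every CTTTGAT. It occurred in 4 of 11 windows, all of Lef1, and in 48.3% of the 32851 windows. The window with CTTTGA precedes a start inside Lef1, and held it 2 times on the reverse strand. Both stretches are shown as the only CTTTGA matches in the 11 windows, with the word, read as its reverse complement TCAAAG on the plus strand, in capitals.
Lef1, chr3:131156159-131156194, plus strand: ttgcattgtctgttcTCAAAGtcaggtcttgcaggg
Lef1, chr3:131156099-131156134, plus strand: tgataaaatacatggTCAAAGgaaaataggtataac
The counts are per gene and do not separate this start of Lef1 from the others, and a match of letters is a description, not a bound site.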

How the data were processed

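The count table was used, with 1 poly(A) library per mouse and 12 mice. Paired-end reads had been aligned with STAR to the GRCm38 build by the authors, and the deposited counts are raw counts per Ensembl gene without normalization. The submitters' processing notes also list bcl2fastq 2.20, Cufflinks, Cuffdiff and DESeq. The counting tool, its strand setting and the annotation release are not given in the sources used here. The authors' comparison tables (log2 fold changes and p-values) and the separate count files of single mice were not used.

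For every comparison, edgeR 4.0.16 (run in R 4.3.3, with filterByExpr, TMM, glmQLFit and glmQLFTest) was fitted to the 8 mice of both groups. P-values were adjusted by Benjamini-Hochberg over all genes tested, with a threshold of 0.05. Standard errors and 95% intervals were derived from the quasi-likelihood F statistic. The calls, their signs and the median size of the changes were checked on simulated data, while the standard errors and intervals were not. Log2 CPM used a prior count of 2. Exact two-sided permutation tests took all 70 arrangements of 8 mice on log2 CPM, and correlations took 100000 permutations (scipy 1.17.1). Positions and exon lengths came from GENCODE M21, which held 98.9% of the genes. Alternatives were DESeq2 1.42.0 and its size factors, limma 3.58.1 (voom with quality weights), other filters, 1 fit of all 12 mice, TMM without muscle, erythroid and neutrophil genes, a muscle covariate, WT mice 1 and 2 alone, each mouse left out, and an osteoblast covariate added after the data were seen. Osteoblast and osteocyte lists were used without Col1a1 and Sost.

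The members and the lists were chosen with earlier results of these data known. Named genes were all members, Sost and Col1a1, the 2 genes with the smallest p of each pathway list in each comparison, and the 3 genes most like each member. Mouse numbers follow the labels' order within a group and link no animals between groups. Total counts of 24366061 to 44418863 per library left 34 counts for the lowest member value, so that counting error is largest for Notum, Nkd1 and Rnf43.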

Additional observations from a re-analysis of the deposited data

Results flagged for a closer look

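Among the 4 mice of a group, a single mouse lay far from the other 3 in 2 of 27 combinations of member and group, where chance gives about 1.35. The gap to the nearest mouse was 0.833 of the group's whole range for Lef1 in Jrt;Sost-ko mouse 3, the highest at 18.0 CPM against 12.1 to 12.9 CPM in the other 3. It was 0.832 for Znrf3 in Jrt;Sost-ko mouse 4, the lowest at 5.28 CPM against 7.43 to 7.96 CPM. Both gaps lay just above Dixon's critical value. Jrt;Sost-ko mouse 3 also had the lowest neutrophil sum of its group (15300 CPM) and the highest osteoblast sum of all mice (40400 CPM), and mouse 4 the lowest muscle sum of all mice (26.8 CPM). The part of these differences in the 2 values was not tested.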

How the results depend on the processing

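No member had an adjusted p under 0.05 under any of the alternatives run, the smallest being 0.145 (Notum, ko against WT, with the osteoblast covariate). Of 477 recomputed fold changes of members, 22 took the opposite sign when 1 mouse was left out and 18 under another setting.

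In het against WT mice with WT mice 1 and 2 alone, the log2 fold change was 0.49 for Axin2, 0.09 for Lef1, 0.14 for Nkd2, 0.26 for Znrf3 and 0.27 for Apcdd1, and the median of the members 0.26. With limma-voom it was 0.07 for Axin2 and 0.06 for Znrf3. On CPM in place of log2 CPM the exact permutation p of Axin2 was 0.971. The sign on CPM (mean 5.57 in het and 5.67 in WT mice) was that of the edgeR estimate and opposite to that on log2 CPM. In ko against WT mice, Nkd1 was at 0.00 with the muscle covariate and at 0.23 with WT mice 1 and 2 alone. The osteoblast covariate gave, in ko against het mice, −0.12 for Axin2 and −0.05 for Znrf3. In het against WT mice it gave −0.04 for Nkd1 and −0.08 for Notum. In ko against WT mice it gave −0.33 for Axin2, 0.04 for Rnf43, −0.23 for Znrf3, −0.64 for Notum and −0.06 for Apcdd1, with a median of −0.06. The cause of these changes was not tested.

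With each mouse left out in turn, the log2 fold changes that took the opposite sign ran across 0. In ko against het mice they ran for Axin2 from −0.02 to 0.38 and for Notum from −0.41 to 0.19. In het against WT mice they ran for Axin2 from −0.17 to 0.23, for Tcf7 from −0.00 to 0.18, for Nkd1 from −0.05 to 0.28, for Nkd2 from −0.19 to 0.01, for Znrf3 from −0.15 to 0.16, for Notum from −0.07 to 0.80 and for Apcdd1 from −0.21 to 0.06. In ko against WT mice they ran for Axin2 from −0.05 to 0.45, for Nkd1 from −0.31 to 0.08, for Rnf43 from −0.12 to 0.08 and for Notum from −0.13 to 0.61.

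No paired analysis was possible because the labels give the mice no numbers shared between groups. With 4 mice a group, the median SE of a member (0.2 on the log2 scale in ko against het mice) was above that of all genes (0.123). The edgeR p-values set the difference between groups against the variation between mice, which edgeR estimates partly from other genes. With the muscle covariate edgeR called 0 genes in ko against het mice, and with the osteoblast covariate 0 there and 8 in ko against WT mice. Against 1 gene called in each comparison with ko mice, DESeq2 called 15 (ko against het) and 13 (ko against WT), limma-voom 0 and 2, and edgeR with 1 mouse left out 0 to 3 and 0 to 2.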
